A study of Mus musculus with 11 samples.

Results

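Ep300, Kmt2a, Tet3, Hdac4, Suv39h1 and Sfmbt2 encode proteins that write, erase or read chemical marks on histones and DNA. These 6 genes were selected by symbol from the 558 genes with a listed exome variant in a set of 11 mouse pancreatic tumours, and they carried 8 of the 739 records. They were picked because they had records, so having a variant is a description here and was not tested. The tumours were pancreatic ductal adenocarcinomas of acinar origin, 4 from KPT mice and 7 from KT mice. All mice carried Ptf1aCreER, a tamoxifen-activated Cre recombinase expressed from the Ptf1a locus of acinar cells, and 2 Cre-dependent tdTomato reporter alleles at Rosa26. One further Cre-activated allele, common to all the mice, is not described here. KPT mice also had both Trp53 alleles floxed (Trp53fl/fl), so that Cre removes the p53 tumour suppressor, and KT mice had no engineered Trp53 change named in the labels. Mice aged 8 to 10 weeks were gavaged with 5 mg tamoxifen a day for 3 days and were kept until morbid. DNA came from whole tumour tissue, which also holds cells other than tumour cells, and no purity value was used.

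Chromatin is DNA wound on histones, and its marks set how readily a gene is read. Acetyl groups added to histone lysines by acetyltransferases go with active genes, and deacetylases remove them. Methyl groups act by position, with H3K4 methylation found at active promoters and H3K9 methylation in silent heterochromatin. TET enzymes oxidise methylcytosine in DNA, a step towards its removal, and Polycomb proteins hold genes silent. Genes of these classes are often mutated in human pancreatic cancer, most of all those for H3K4 methyltransferases and SWI/SNF remodellers.

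Each record gives 1 variant of 1 tumour with its reference reads, its variant reads and an allele fraction, the caller's estimate of the share of the site's DNA that carries the variant. Sites were covered by 10 to 198 reads, with tumour medians of 11 to 38 in KPT and 15 to 58 in KT tumours. The lowest listed allele fraction was 25% and the lowest depth 10 reads. A gene with no record may thus still carry a variant below either level. The 8 changes are written below as codons on the coding strand, to show which base and which residue each one altered. The altered base is in capitals, with the reference codon before the slash and the variant codon after it, and amino acid positions count from the first residue of the protein.
Hdac4 P227H, KPT tumour 4: cCc/cAc
Tet3 G1145V, KPT tumour 4: gGg/gTg
Sfmbt2 K432fs, KPT tumour 4: Aaa/aa
Ep300 G677E, KT tumour 1: gGg/gAg
Suv39h1 N268fs, KT tumour 1: aat/aaAt
Kmt2a S2314P, KT tumour 3: Tct/Cct
Kmt2a N3581D, KT tumour 3: Aac/Gac
Hdac4 A569S, KT tumour 5: Gcc/Tcc

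The records fell in 1 of 4 KPT tumours and 3 of 7 KT tumours. KPT tumour 4 held 3 of them, in Hdac4, Tet3 and Sfmbt2, and KPT tumours 1 to 3 held 0. KT tumours 1 and 3 held 2 each, in Ep300 and Suv39h1 and in Kmt2a, KT tumour 5 held 1 in Hdac4, and the other 4 KT tumours held 0. Of the records, 6 were missense changes and 2 were frameshifts, in Sfmbt2 and Suv39h1. The missense changes comprised 3 C-to-A, 2 T-to-C and 1 C-to-T substitution, counted with both DNA strands folded together.

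The records divided by their surroundings. Of the 8, 4 lay in runs, stretches where a tumour had 3 or more listed positions, each no further than 2 Mb from the next, and 4 lay outside them. Those in runs were Ep300 G677E, both Kmt2a changes and Hdac4 A569S, with allele fractions of 38.0% to 50% and depths of 20 to 53 reads. Those outside runs were Hdac4 P227H, Tet3 G1145V, Sfmbt2 K432fs and Suv39h1 N268fs, with 25% to 29.9% and 10 to 38 reads. The 2 sets did not overlap in allele fraction. Over the whole table the ranges overlapped almost wholly, 25% to 98.7% for the 512 records in runs and 25% to 97.2% for the 227 outside, with medians of 49.95% and 30%. The tumours differed in this. In KPT tumour 4 the medians were 45.9% in runs and 27.7% outside, in KT tumour 1 they were 48.85% and 36.5%, in KT tumour 3 47.6% and 34.9%, and in KT tumour 5 53.2% and 41.2%. In KPT tumours 1 and 3 the medians in and outside runs were within 1 point of each other. All 3 KPT records, each from KPT tumour 4, lay outside runs and 4 of the 5 KT records lay inside. Over the whole table, 34.6% of KPT records and 81.1% of KT records lay in runs, and 33.3% of those of KPT tumour 4. Run and allele fraction could thus not be told apart within these genes. Genotype was parted from them only by Suv39h1 N268fs, a KT record outside runs.

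**Figure D1:**
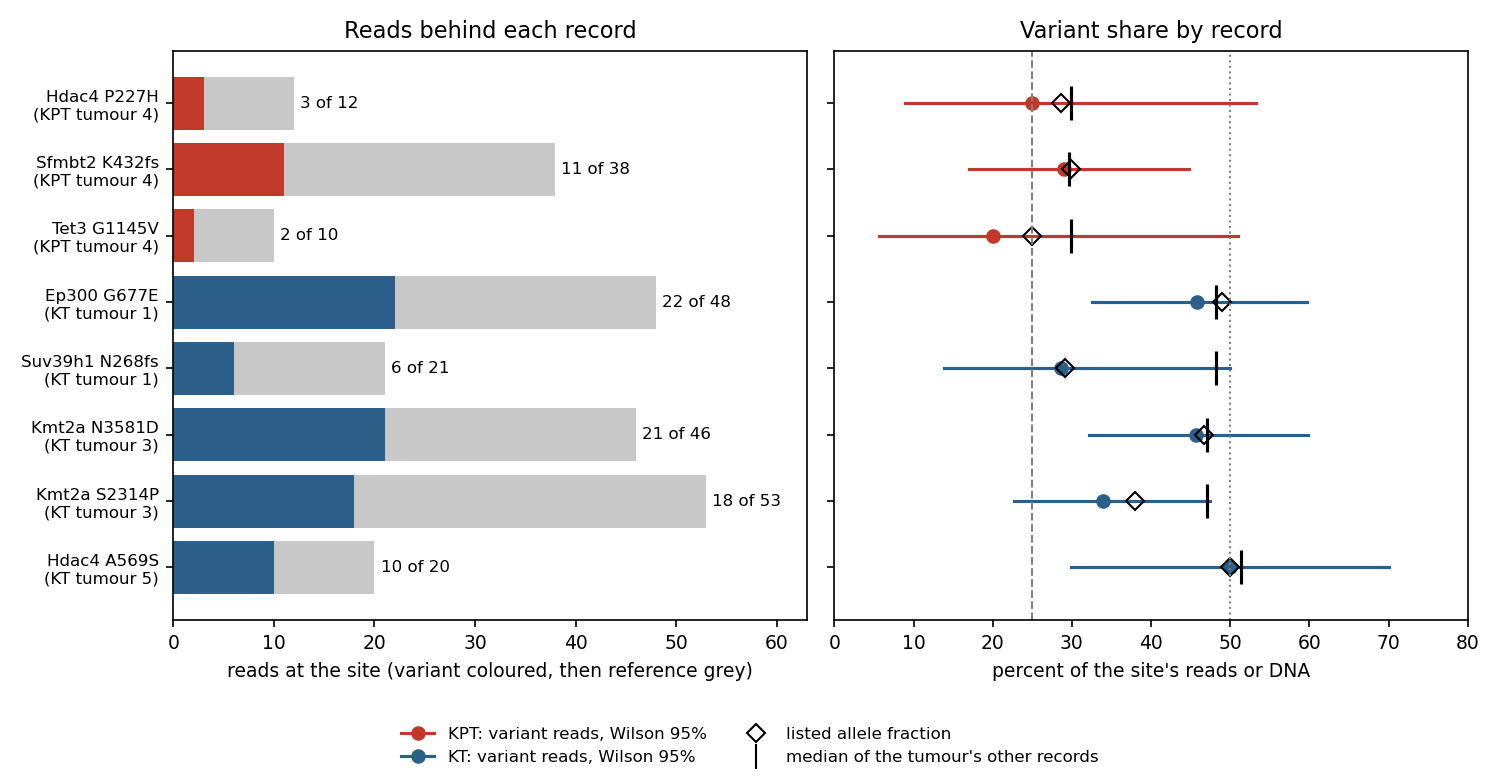
Left, reads at each of the 8 sites (x axis, reads; coloured bars are variant reads in KPT tumours, red, or KT tumours, blue, and grey bars are reference reads). Right, the share of variant reads with its 95% Wilson interval (dots and lines), the listed allele fraction (diamonds) and the median listed fraction of the tumour's other records (vertical ticks), in percent; dashed and dotted lines mark 25% and 50%. Hdac4 P227H and Tet3 G1145V rest on 3 of 12 and 2 of 10 reads, whereas Ep300 G677E rests on 22 of 48.

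Ep300 encodes p300, an acetyltransferase of histone H3 and H4 tails and of many transcription factors, which it joins as a coactivator at enhancers. The gene (ENSMUSG00000055024) spans chr15:81586209-81652077 on the plus strand of GRCm38. Its single record, G677E in KT tumour 1, replaced glycine with the acidic residue glutamate in exon 10 of 31, at position 81621210. The change lies after the KIX domain, which binds transcription factors, and before the bromodomain and the catalytic domain. It was on 22 of 48 reads, or 45.8% (95% Wilson interval 32.6% to 59.7%), and was listed at 48.9%. The median of the other 224 records of that tumour was 48.15%, with 106 records above the Ep300 value and 118 below. Ep300 was the only one of the 6 genes to which the authors gave a tumour suppressor mark, a mark that was empty for KT tumour 3.

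The Ep300 change sat in a run of 29 records in 27 genes, from position 80923574 to 86033119, that spanned 5.11 Mb. The other 28 records of the run had a median allele fraction of 50% and ran from 26.5% to 70.7%. The nearest records were Dnajb7 G150R at 214 kb, on 23 of 51 reads, and L3mbtl2 L682P at 65.8 kb, on 19 of 30 reads. L3mbtl2 encodes a reader of the MBT type that takes part in a Polycomb complex, so neighbouring records of this tumour altered 2 chromatin genes. Their listed fractions were 48.9% for Ep300 and 58.6% for L3mbtl2, and their Wilson intervals, 32.6% to 59.7% and 45.5% to 78.1%, overlapped.

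Kmt2a encodes MLL1, a very large H3K4 methyltransferase that keeps developmental genes such as the Hox genes active. It is cut by the protease taspase into an N-terminal and a C-terminal part, which stay bound to each other through the FYRN and FYRC regions, and the catalytic SET domain lies at the C-terminal end. The gene (ENSMUSG00000002028) spans chr9:44803355-44881352 on the minus strand. KT tumour 3 had both of the Kmt2a records, 4297 bases and 1267 residues apart. S2314P, in exon 27 of 36 at position 44822070, put a proline between the FYRN region and the taspase sites, in the N-terminal part. N3581D, in exon 28 at position 44817773, put an acidic residue in the C-terminal part, before the FYRC region and the SET domain.

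N3581D was on 21 of 46 reads, or 45.7% (32.2% to 59.8%), and was listed at 46.7%. S2314P was on 18 of 53 reads, or 34.0% (22.7% to 47.4%), and was listed at 38.0%. Both were read at greater depth than the median of 40 reads for the tumour's other records. Their intervals overlapped, although only that of N3581D included 50%. Among the 91 other records of the tumour, 77 had a higher listed fraction than S2314P and 49 a higher one than N3581D. The listed records do not tell whether the changes lie on the same copy of the gene, as both were given unphased.

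The run around Kmt2a held 35 records in 21 genes over 3.24 Mb, from position 42971205 to 46211878. The nearest records of other genes were Phldb1 R91Q, 91.7 kb from N3581D with 16 of 31 reads, and Ube4a R89C, 131 kb from S2314P with 11 of 17. For S2314P the 34 other records of the run ran from 35.2% to 66.8% with a median of 47.35%, and its 38.0% was within that range. Ube4a, a ubiquitin ligase gene, also had a record in KT tumour 1. Kmt2a had none there, and it was the only gene of the chromatin list in this run.

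**Figure D2:**
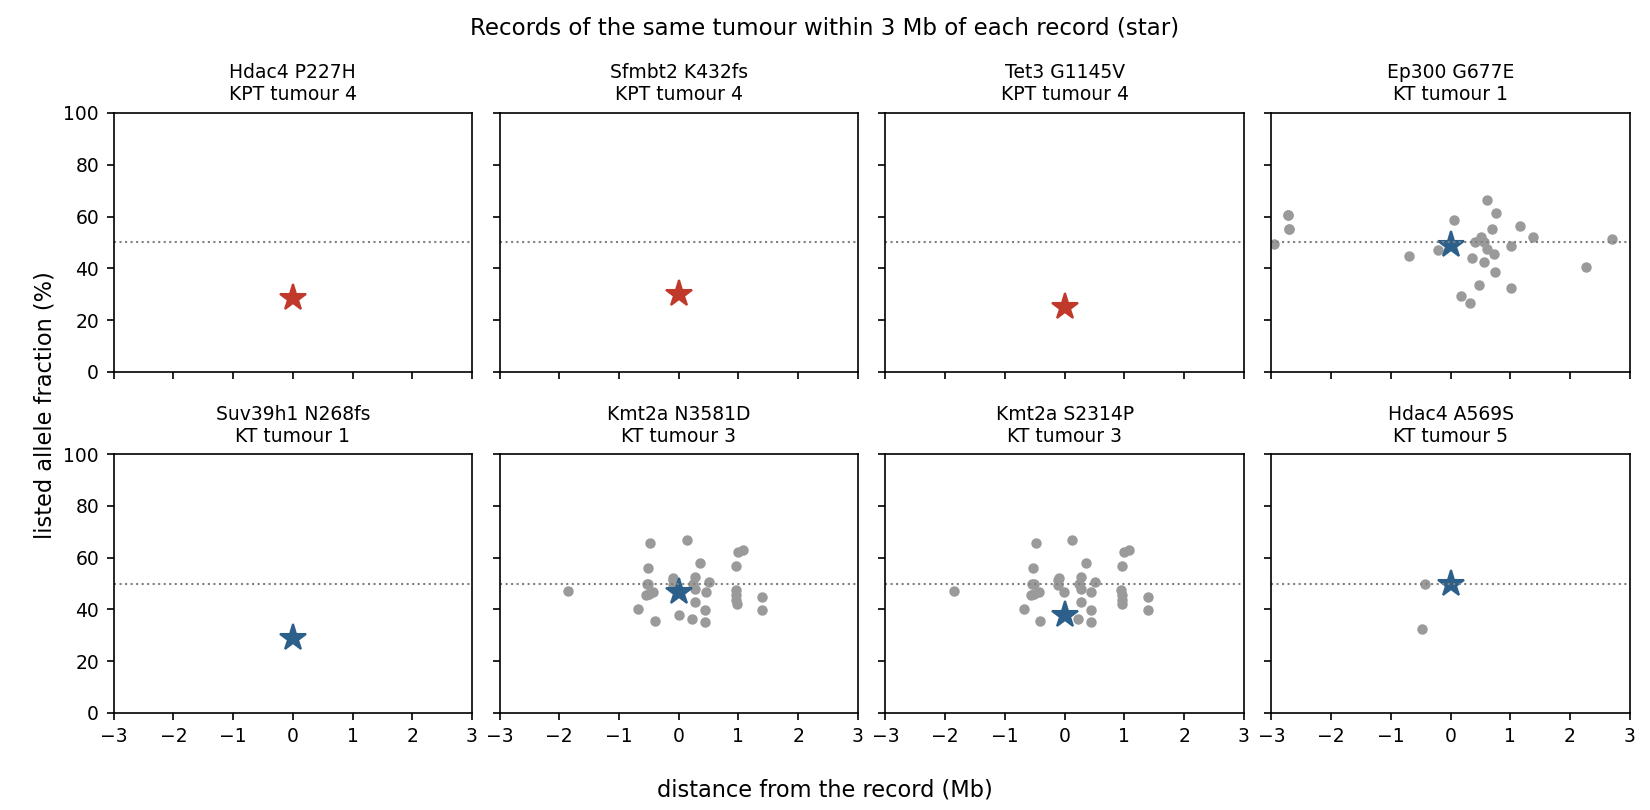
Listed allele fraction (y axis, percent) against distance in Mb (x axis) for records of the same tumour within 3 Mb of each of the 8 records, which are drawn as stars (red, KPT; blue, KT); grey points are other records and the dotted line marks 50%. Ep300 G677E had 28 neighbours, each Kmt2a change 34 and Hdac4 A569S 2, whereas the other 4 records had 0.

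Suv39h1 encodes an H3K9 methyltransferase that deposits trimethylation in pericentric heterochromatin, bound there through its chromodomain and HP1. The gene (ENSMUSG00000039231) spans chrX:8061171-8074760 on the minus strand. In KT tumour 1 an inserted A in codon 268 shifted the reading frame, in exon 3 of 6 at position 8070615. By the usual layout of the protein this falls early in the SET domain and before its catalytic NHSC motif, which the shifted frame would not encode. The insertion was on 6 of 21 reads, or 28.6% (13.8% to 49.96%), and was listed at 29.1%. Only 11 of the 224 other records of the tumour had a lower listed fraction, and 213 had a higher one. Of the 6 variant reads 1 had the F1R2 and 5 the F2R1 read-pair orientation, against 8 and 7 of the 15 reference reads.

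The Suv39h1 record stood apart from most X-linked records of KT tumour 1. Of the 12 others, 11 had listed fractions between 91.2% and 98.5%, with 1 reference read among their 324 reads. These 11 all lay at 73.0 Mb or beyond, 10 of them in runs, whereas Suv39h1 lay outside runs. The sex of the animal was not used, so the number of X copies is not known here. The exception was Ints6l R790*, a stop gain in a paralogue of an Integrator subunit, also outside runs, on 4 of 11 reads and listed at 33.3%. Ints6l was also the nearest record to Suv39h1, at 48.4 Mb. The other gene of the chromatin list with a record on this chromosome was Phf8, which encodes a demethylase of H3K9 and H4K20. Phf8 N567S was on 37 of 37 reads and listed at 97.3%, in a run of 5 records. Suv39h1 and Phf8 thus had records in the same tumour, at 29.1% and 97.3%. Their intervals, 13.8% to 49.96% and 90.6% to 100%, did not overlap. An effect of either change on histone methylation was not tested.

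Hdac4 encodes a class IIa deacetylase that represses MEF2 target genes and leaves the nucleus when its phosphorylated N-terminal part binds 14-3-3 proteins. The gene (ENSMUSG00000026313) spans chr1:91928779-92195702 on the minus strand. It was the only one of the 6 genes with records in 2 tumours, 1 KPT and 1 KT. In KPT tumour 4, P227H in exon 7 of 27 was on 3 of 12 reads, or 25% (8.89% to 53.2%), and was listed at 28.6%. In KT tumour 5, A569S in exon 13 was on 10 of 20 reads, or 50% (29.9% to 70.1%), and was listed at 50%. The read intervals overlapped, so a difference in variant share was not detectable at this depth. The changes lie at positions 91996107 and 91975501, 342 residues apart, and both precede the C-terminal deacetylase domain. Both were C-to-A substitutions.

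The surroundings of the Hdac4 records differed. A569S ended a run of 3 records over 0.475 Mb in KT tumour 5, after Traf3ip1 and Asb1, with Asb1 G7D 435 kb away on 7 of 13 reads. P227H had no record within 3 Mb in KPT tumour 4, and the nearest, Dner R483H, was 7.55 Mb away on 2 of 12 reads. No other gene had records in exactly KPT tumour 4 and KT tumour 5, among the 14 genes with records in 2 tumours. Of those 14, 6 had records in 1 KPT and 1 KT tumour.

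Hdac4 was listed in 25% of KPT and 14.3% of KT tumours (1 of 4 and 1 of 7), a difference of 10.7 points that was not significant (Fisher's exact test, two-sided, p = 1, and p = 1 after adjustment). Over the whole table, 0 of the 14 genes with records in at least 2 tumours passed an adjusted p of 0.05, a background of 0% (Fisher's exact test with Benjamini-Hochberg adjustment), and 0 had an unadjusted p under 0.05. With all 558 genes entered the count was again 0. No gene had records in more than 2 tumours, so the smallest p this design allows is 0.109 for such a gene and 0.364 for the other 5 genes, with 1 tumour each. The counts of 0 were thus fixed by the design and say nothing of whether the genotypes differ. The direction for Hdac4 turned when at least 5 variant reads were required, which dropped P227H and left 0% of KPT against 14.3% of KT tumours.

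Tet3 encodes a dioxygenase that turns 5-methylcytosine into 5-hydroxymethylcytosine and beyond, and is the TET enzyme of the fertilised egg. The gene (ENSMUSG00000034832) spans chr6:83362373-83457208 on the minus strand. Its record in KPT tumour 4, G1145V in exon 11 of 12 at position 83370577, changed a glycine in the C-terminal catalytic region to valine. It was on 2 of 10 reads, or 20% (5.67% to 51.0%), and was listed at 25%, the lowest value in the table. Both the depth and the variant reads were at the lowest level that the table holds. None of the 71 other records of the tumour had a lower listed fraction, 9 had the same and 62 had a higher one. The nearest record, Polr1a E1578D, was 11.4 Mb away on 4 of 12 reads.

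The Hdac4 and Tet3 changes of KPT tumour 4 were both C-to-A, the class that made up 39 of the 70 substitutions listed for that tumour (55.7%). Fewer than 5 variant reads supported 37 of those 39, against 7 of its 31 other substitutions, and their median listed fractions were 27.3% and 46.0%. The share varied within both genotypes, at 22.2%, 14.7%, 82.3% and 55.7% in KPT tumours 1 to 4 and between 0% and 66.7% in the KT tumours, with 54.5% of 11 substitutions in KT tumour 2 and 66.7% of 3 in KT tumour 7. Hdac4 A569S was one of 14 C-to-A changes among the 129 substitutions of KT tumour 5 (10.9%), of which 3 had fewer than 5 variant reads. The part of this C-to-A share in the KPT records was not tested.

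**Figure D3:**
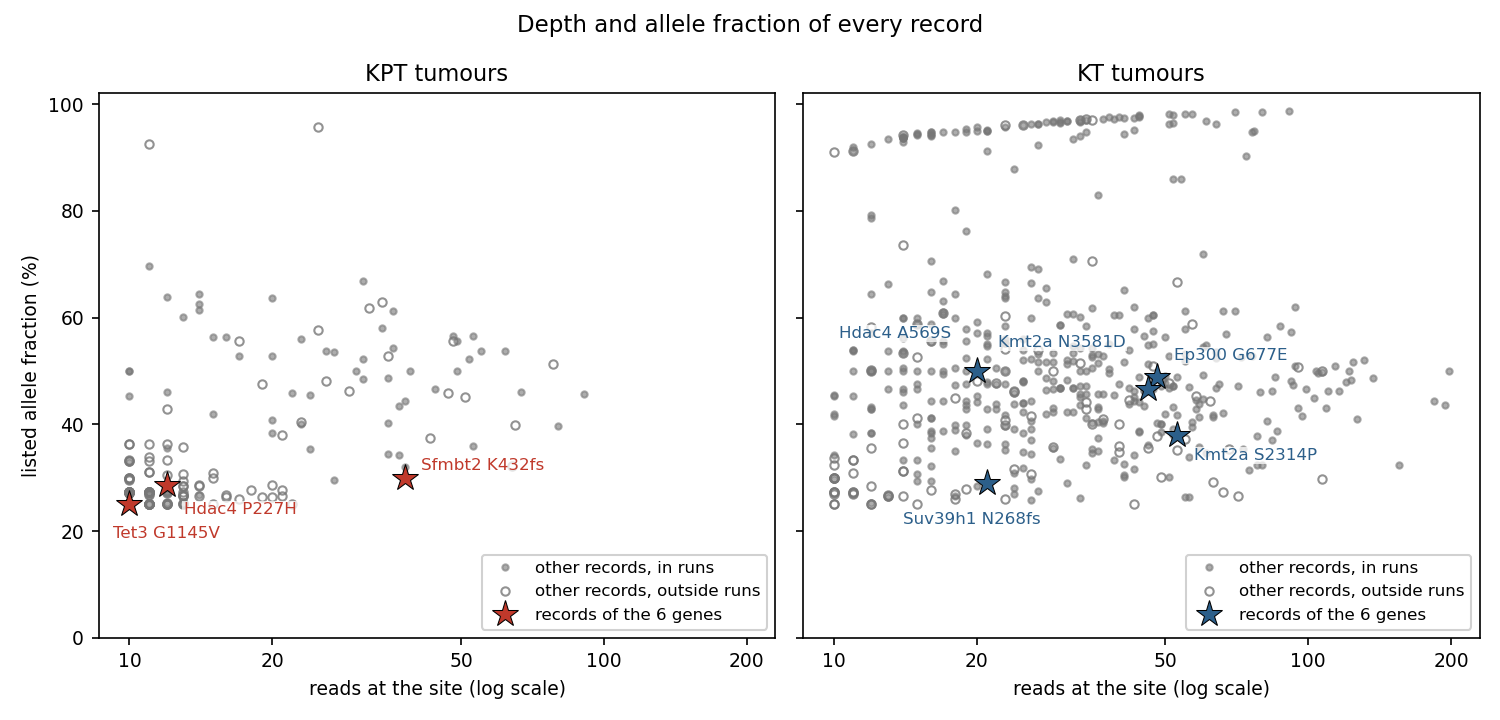
Listed allele fraction (y axis, percent) against depth (x axis, reads, log scale) for every record of the KPT tumours (left) and the KT tumours (right); filled points lie in runs, open points outside them, and stars are the 8 records of the 6 genes. Tet3 G1145V and Hdac4 P227H sit at 10 and 12 reads among many open points below 30%, and Sfmbt2 K432fs sits at 38 reads and 29.9%.

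Sfmbt2 encodes a Polycomb group protein with MBT repeats, which bind methylated histone tails, and a C-terminal SAM domain. It is imprinted in the mouse, with the paternal copy expressed in extraembryonic tissue. The gene (ENSMUSG00000061186) spans chr2:10370440-10595253 on the plus strand. In KPT tumour 4 the loss of 1 A from an AAA lysine codon shifted the frame at residue 432, in exon 12 of 23 at position 10530583. This falls in the region of the MBT repeats, ahead of the SAM domain. The deletion was on 11 of 38 reads, or 28.9% (17.0% to 44.8%), an interval that did not include 50%, and was listed at 29.9%. It was the most deeply read of the 3 KPT records, with only 5 of the tumour's 71 other records deeper. The variant reads were split 4 and 6 between the F1R2 and F2R1 orientations and the reference reads 12 and 14, with 1 read of each kind counted in neither. The nearest record, Crb2 K1142N, was 27.3 Mb away on 2 of 10 reads.

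The frameshifts of Sfmbt2 and Suv39h1 belonged to 18 records with a frameshift in the table, 2 in KPT and 16 in KT tumours. Of these, 16 were changes of 1 base, 12 of them deletions, as in Sfmbt2, and 4 of them insertions, as in Suv39h1. In KT tumour 1 the insertions of Nprl3 and Prr14l each adjoined a deletion in the same gene with the same read numbers. These were 8 of 26 reads for Nprl3 and 4 of 14 for Prr14l. The changes of each pair are counted separately here, although together they would restore the frame if they lie on the same copy, which was not tested. Outside runs there were 13 frameshifts, the Prr14l pair among them. Their median listed fraction was 31.2%, the value of both Prr14l records. The 29.9% of Sfmbt2 and the 29.1% of Suv39h1 lay just below it. Of those 13, 7 had at least 5 variant reads, these 2 among them. The other frameshift of KPT tumour 4, in the leukotriene enzyme gene Lta4h, was on 21 of 64 reads and listed at 32.2%. Frameshifts were 25% of the 8 records and 2.44% of all 739, but the frameshifted genes were chosen with these records known, so no excess is drawn from this.

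A list of 223 chromatin genes in 11 families, which includes the 6 genes, placed them among their relatives. Records were found for 10 of the 223 genes (4.48%), against 543 of 21900 RefSeq coding genes (2.48%). The 6 genes were chosen because they had records, which raises the first share, and without them it was 4 of 217 genes (1.84%). Leaving out only genes with records lowers the share in turn, so neither share shows an excess or a lack. These 10 genes had 13 records, 3 in KPT and 10 in KT tumours, or 1.60% of KPT and 1.81% of KT records. KPT tumour 4 had 3 of the list genes. KT tumour 1 had 5 of them, KT tumours 2, 3 and 5 had 1 each, and 0 list genes had a record in the other tumours. Within families the counts were 1 of 14 acetyltransferases, 2 of 18 deacetylases and sirtuins, 1 of 15 H3K4 methyltransferases and COMPASS subunits and 1 of 12 genes of the H3K9 family. They were 1 of 22 other methyltransferases, 1 of 21 demethylases, 1 of 14 genes of DNA methylation and 2 of 36 Polycomb genes. The list's 40 remodellers, SWI/SNF subunits among them, had 0 records at these allele fractions and depths. The same held for its 16 corepressor subunits and its 15 acetyl-lysine readers and histone ubiquitin enzymes. The list is not complete, so these counts do not cover every chromatin gene. Phf12 in KPT tumour 4, Vps72 in KT tumour 5 and Prdm8 in KPT tumour 3 had records but were not on it.

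The 4 further list genes all had records in KT tumours. L3mbtl2 L682P and Phf8 N567S, described above, were in KT tumour 1. Hdac10, a class IIb deacetylase gene whose product acts mainly on polyamines, had A107V and G522R in KT tumour 1, 3.13 kb apart on chromosome 15. They were on 14 of 32 and 31 of 82 reads and listed at 51.8% and 40.6%, in a run of 9 records. A107V lay 7.51 Mb from the Ep300 record. The nearest records of other genes were Tubgcp6 A935P and Ppp6r2 S267G, with 13 of 23 and 21 of 53 reads. Prmt8, an arginine methyltransferase gene expressed mainly in brain, had R218Q in KT tumour 2. At 107 reads Prmt8 R218Q had the greatest depth of the 13 list records, and its 30 variant reads gave 28.0% (20.4% to 37.2%). It lay outside runs and was listed at 29.8%, close to the values of the other list records outside runs, 25% to 29.9%.

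**Figure D4:**
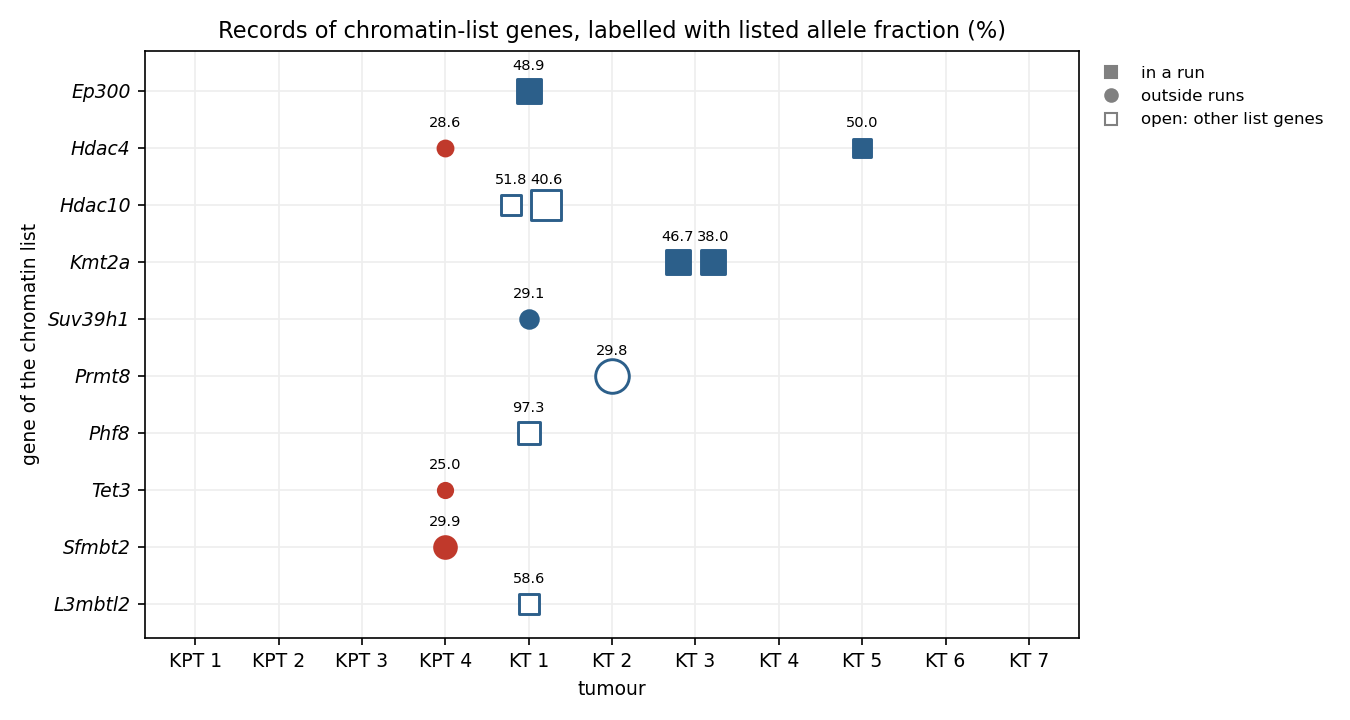
Records of the 10 chromatin-list genes (y axis) by tumour (x axis, KPT then KT), each labelled with its listed allele fraction in percent; filled symbols are the 6 genes, open symbols other list genes, squares lie in runs, circles outside them, and symbol area grows with depth. KPT 4 holds 3 circles between 25% and 29.9%, and KT 1 holds 6 symbols, of which Suv39h1 is the only circle.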

How the data were processed

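One variant table was used. Its depth column holds counts of reads at each site, per the file headers. Its allele fraction column holds a fraction, per the file headers, which is printed in percent. The remaining deposited columns (other units) give read pairs for the reference and the variant, positions, codons and marks. GATK, HISAT2 2.0.4, mm10 and GRCm38 are named, per the submitters' processing notes, with no role, and libraries used a linked-read exome kit, per the labels' protocols. Caller settings and any normal tissue were not given in the sources used here. In all 739 records the depth equalled the sum of both read numbers. Mappability and cancer gene marks were empty for 108 records, those of KT tumours 2, 3 and 7.

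The members, the chromatin list and the run definition were chosen with earlier results of these data known. Named genes were the 6 members, list genes with a record, the nearest record of another gene on each side, and genes with the same tumours as Hdac4. Traf3ip1, Lta4h, Nprl3, Prr14l, Phf12, Vps72 and Prdm8 were named after their values were seen. Intervals are 95% Wilson intervals and cover counting error only. Fisher's exact test, two-sided, compared gene frequencies, with Benjamini-Hochberg adjustment. The labels do not state whether shared title numbers pair animals. The scripts were tested on simulated data. Gene names and spans came from RefSeq on GRCm38.p6, which held all 223 list genes. No genome or protein sequence was used here, so domain placements are background knowledge. Engineered loci are not reported here. The software was Matplotlib 3.10.9, SciPy 1.17.1, pandas 2.3.3 and Python 3.11.15.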

Additional observations from a re-analysis of the deposited data

Results flagged for a closer look

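KPT tumour 4 had 3 records of the 6 genes, against 0 in each of KPT tumours 1 to 3, and these were also its 3 records of the chromatin list, against 0. With the other tumours at 0, any count above 0 would have been singled out, and the genes were chosen from these records, so this is a description only. Of the 3 records of the 6 genes, 2 had fewer than 5 variant reads. KPT tumour 4 also had the most records of any KPT tumour, 72 against 19, 34 and 63.

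KT tumour 1 was farther from the other KT tumours than the limit set for a sample apart in records of the chromatin list, 6 against 2 in KT tumour 3, 1 each in KT tumours 2 and 5 and 0 in the other 3. It had 225 records in all, and list records were 2.67% of them, against 2.17% in KT tumour 3 and 7.69% of the 13 records in KT tumour 2. Chance flags about 1 in 20 groups of continuous values. The rate for small counts with many at 0 was not measured, and the counts were not adjusted for the load of a tumour.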

How the results depend on the processing

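The 6 genes kept 6 of 8 records with at least 5 variant reads and 6 at a depth of at least 20 reads. All 8 were left without poorly mappable records, although Kmt2a had no mark. Leaving out each tumour, added after seeing the data, gave 5 to 8, with 5 without KPT tumour 4. Records in runs numbered 4 at gaps of 1, 2 and 5 Mb. List genes with a record were 10, and 9 with at least 5 variant reads or 20 reads of depth, but 5 with records in runs left out. They were 5 to 10 without each tumour, the 5 being without KT tumour 1. Listed fractions lay below the median of the tumour's other records for 6 of the 8, and 7 by share of variant reads, where Ep300 G677E moved from 0.75 to -2.17 points. The KPT minus KT difference for Hdac4, 10.7 points, was -14.3 with at least 5 variant reads, with 20 reads of depth, and without KPT tumour 4, and ranged from -14.3 to 25 points without each tumour.

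Fisher's exact test called 0 genes in every setting that could be run, with 3 to 14 genes tested when a tumour was left out. With no gene in more than 2 tumours, the smallest p these settings can give is 0.0667, so the counts of 0 were fixed by the design and show no stability. With records in runs left out, 0 genes had records in 2 tumours and no test was made. A replicate block on the title numbers 1 to 4 also called 0 of 10 genes, with a smallest p of 0.5 by exact exchange within numbers, which is the smallest it can give for a gene in 2 tumours. Same-numbered KPT and KT tumours shared 1 gene over 4 pairs, against 5 over the other 24 pairs.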

Other observations

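The exchanges of the 6 missense records recurred elsewhere in the table, of which KPT tumours held 188 of 739 records (25.4%). Proline to histidine, the exchange of Hdac4 P227H, was listed 17 times, 15 in KPT and 2 in KT tumours, and 7 of these were in KPT tumour 4. Glycine to valine, as in Tet3 G1145V, was listed 5 times, each in a KPT tumour, and 3 of these were in KPT tumour 4. Records of the same tumour are not replicates of its genotype. Serine to proline, as in Kmt2a S2314P, was listed 9 times, each in a KT tumour, and asparagine to aspartate, as in Kmt2a N3581D, 1 time in KPT and 7 times in KT tumours. Glycine to glutamate, as in Ep300 G677E, was listed 6 times, 1 in KPT and 5 in KT tumours. Alanine to serine, as in Hdac4 A569S, was listed 6 times in KPT and 6 times in KT tumours.

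All 8 records of the 6 genes had variant reads in both read-pair orientations, as did 708 of the 739 records (95.8%). Summed over the 8 records, 42 variant reads were F1R2 and 50 were F2R1, against 75 and 79 reference reads, leaving out 1 variant and 1 reference read of Sfmbt2 counted in neither orientation. Ep300 G677E had 16 F1R2 and 6 F2R1 variant reads against 13 and 13 reference reads, the widest imbalance to the F1R2 side among the 8.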
